A study of Mus musculus with 2 samples.

Results

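The genes described here are 10 immediate early genes, Fos, Fosb, Jun, Junb, Egr1, Ier2, Ier3, Atf3, Dusp1 and Klf2. They were taken from a fixed list of symbols, and 10 of 10 were found among the 31053 genes of a single-cell RNA sequencing matrix. The cells came from mouse organoids of the small intestine, cultured epithelium that forms its own crypts. By the labels there was a library of control organoids and a library of organoids given melatonin (1 each). Each pooled 3 organoid lines on day 3 of culture, and no strain, dose or genotype is given. The files of both samples were identical, so they hold 1 matrix, in which each barcode ends in 1 (set 1) or 2 (set 2). No label ties either ending to a treatment, so treated and control cells cannot be told apart here and no comparison between them was made. Ratios between the sets have set 2 in the numerator, which is a choice of notation only.

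Immediate early genes are transcribed within minutes of a stimulus such as a growth factor, a neurotransmitter or mechanical stress, without the need for new protein synthesis. Mitogen-activated protein kinases and cyclic AMP signalling act on factors already bound at their promoters, and most of the transcripts are short-lived. In intestinal epithelium they are known to respond to growth factor signals and to injury. They are also known to respond to the handling that turns tissue into single cells, so their level in a dissociated sample can carry both.

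The promoters of 8 of the 10 genes were in a RefSeq table of mouse promoters (build GRCm38.p6), which did not list Egr1 or Ier2. In the 250 bases before the transcription start, both strands were searched for 5 motifs. These were the CArG box bound by serum response factor, the cAMP response element TGACGTCA, its shorter core TGACG (which the full element contains), the AP-1 site TGANTCA bound by FOS and JUN dimers, and the EGR site GCGNGGGCG. The core was present in 6 of 8 promoters (Fos, Fosb, Junb, Atf3, Dusp1 and Klf2), against 17.8% of 32851 promoters of the same length in the table. The full cAMP response element was found in Dusp1, against 1.55% of promoters, and the EGR site in Fosb and Klf2, against 4.70%. The CArG box (1.47% of promoters) and the AP-1 site (6.75%) had no match in the 8 windows. Sites beyond 250 bases, and any in Egr1 or Ier2, were not searched, so this does not show that the genes lack them. A match is a string of letters, not a bound site. The windows of 4 genes are shown, 5′ to 3′ on the gene's strand, with matches in capitals: Fos with the core at 2 positions, Fosb with the core followed by an EGR site, Dusp1 with the core and the full element, and Ier3, which like Jun had no match.
Fos, chr12:85473640-85473889, plus strand: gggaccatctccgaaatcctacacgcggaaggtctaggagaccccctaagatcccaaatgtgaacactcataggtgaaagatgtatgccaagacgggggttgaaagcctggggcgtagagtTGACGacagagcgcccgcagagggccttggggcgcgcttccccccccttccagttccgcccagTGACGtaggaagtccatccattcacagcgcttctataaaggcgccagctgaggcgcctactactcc
Fosb, chr7:19310046-19310295, minus strand: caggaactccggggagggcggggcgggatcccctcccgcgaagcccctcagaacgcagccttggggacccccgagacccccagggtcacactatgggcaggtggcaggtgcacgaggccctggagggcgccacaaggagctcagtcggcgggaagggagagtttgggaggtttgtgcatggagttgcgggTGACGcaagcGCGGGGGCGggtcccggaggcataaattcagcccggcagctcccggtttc
Dusp1, chr17:26508473-26508722, minus strand: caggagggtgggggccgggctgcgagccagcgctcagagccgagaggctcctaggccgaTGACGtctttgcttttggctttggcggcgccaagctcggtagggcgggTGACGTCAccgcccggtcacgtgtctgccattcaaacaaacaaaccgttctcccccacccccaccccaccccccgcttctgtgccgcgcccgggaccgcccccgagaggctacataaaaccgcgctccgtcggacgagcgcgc
Ier3, chr17:35821463-35821712, plus strand: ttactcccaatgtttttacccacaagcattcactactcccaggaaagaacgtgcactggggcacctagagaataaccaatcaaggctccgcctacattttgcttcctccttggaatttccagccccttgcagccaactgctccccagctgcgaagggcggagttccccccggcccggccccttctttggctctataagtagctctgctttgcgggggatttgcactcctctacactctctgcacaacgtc

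Barcodes with at least 500 genes, at least 1000 unique molecular identifiers (UMIs, each standing for 1 captured RNA molecule) and at most 20% mitochondrial UMIs were kept. These were 2300 of 12364 barcodes in set 1 and 1766 of 9442 in set 2, with a median of 29872 and 28759 UMIs. Of the barcode sequences, 29 occurred with both endings, but in no case were both copies kept. Each set is 1 pool of cells with no replicate, so there are no tests. Levels are the UMIs of a gene per 1000000 UMIs of the group of cells (CPM), and the intervals are exact 95% Poisson intervals for levels and exact Clopper-Pearson intervals for shares, which cover counting error only.

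Cells were assigned to classes by summed CPM of marker genes, none of which is an immediate early gene described here. Enteroendocrine-like cells (hormone-secreting cells, gated on genes such as Chga and Chgb) numbered 258 in set 1 and 257 in set 2, and enterocyte-like cells (absorptive cells, gated on genes such as Fabp1 and Apoa1) 114 and 171. Cells above both the stem gate (Lgr5, Olfm4 and others) and the proliferation gate (Mki67, Top2a and others) were the most numerous, 1079 and 708, and a further 554 and 321 passed the proliferation gate only. Small classes were revival-like (15 and 17 cells, gated on Clu, Anxa1 and related genes), Paneth-like (17 and 41) and goblet-like (22 and 9). Of markers from outside the epithelium, Ptprc was at 0 in both sets among 6 immune markers, which summed to 8.31 and 6.28 CPM. The 6 mesenchymal markers summed to 77.0 and 65.7 CPM, with Col3a1 and Dcn at 0 in both sets, and nearly all of the sum was Vim, an intermediate filament gene. Vim was the leading gene of the enteroendocrine-like class, at 1165 and 784 CPM, where Col1a1, Col3a1, Dcn and Acta2 were at 0 in both sets.

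Over all kept cells the 10 genes together held 2440 CPM in set 1 (interval 2428 to 2453) and 3088 CPM in set 2 (3073 to 3104). Fos, which encodes a leucine zipper partner of the JUN proteins in AP-1, was at 455 CPM in set 1 and 552 in set 2, and its relative Fosb at 123 and 167. Jun, the AP-1 subunit that can also pair with itself, was at 721 and 877, and Junb at 245 and 298. Egr1, a zinc finger transcription factor, was at 290 and 363. Atf3, a stress-induced factor of the same leucine zipper superfamily, was at 226 and 369. Klf2, a Krüppel-like zinc finger factor, was at 50.5 and 53.5. Of the remaining genes, Ier2 was at 228 and 261, and Ier3 at 36.4 and 48.2. Dusp1, a phosphatase that removes the activating phosphates from mitogen-activated protein kinases, was at 65.9 and 99.9. Jun had a UMI in 92.9% of cells in set 1 and 93.3% in set 2, and Klf2 in 39.0% and 42.2%. With every cell thinned to 2000 UMIs (2035 and 1689 cells, after leaving out 265 and 77 shallower ones), the expected shares were 66.6% and 70.7% for Jun and 9.26% and 9.67% for Klf2. As a gauge of free RNA, Chgb, a hormone granule gene, was found at that depth in 9.62% and 9.18% of cells of both the stem and proliferation gates and with any UMI in 77.1% and 71.0% of them, at a median of 36657 and 33964 UMIs. Fabp1, an enterocyte gene, was found at that depth in 26.9% and 18.3% of the same cells and in 13.9% and 13.4% of enteroendocrine-like cells. In cells of both gates, the shares of Klf2 (4.98% and 5.17%), Dusp1 (5.35% and 7.76%) and Ier3 (6.17% and 6.54%) were under the Chgb share. Fosb in both sets and Atf3 in set 1 were under the Fabp1 share, and the other 5 genes were above both. These shares gauge the free RNA of Chgb and Fabp1, not that of the 10 genes. The part of free RNA in the low levels of that class was not tested.

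**Figure D1:**
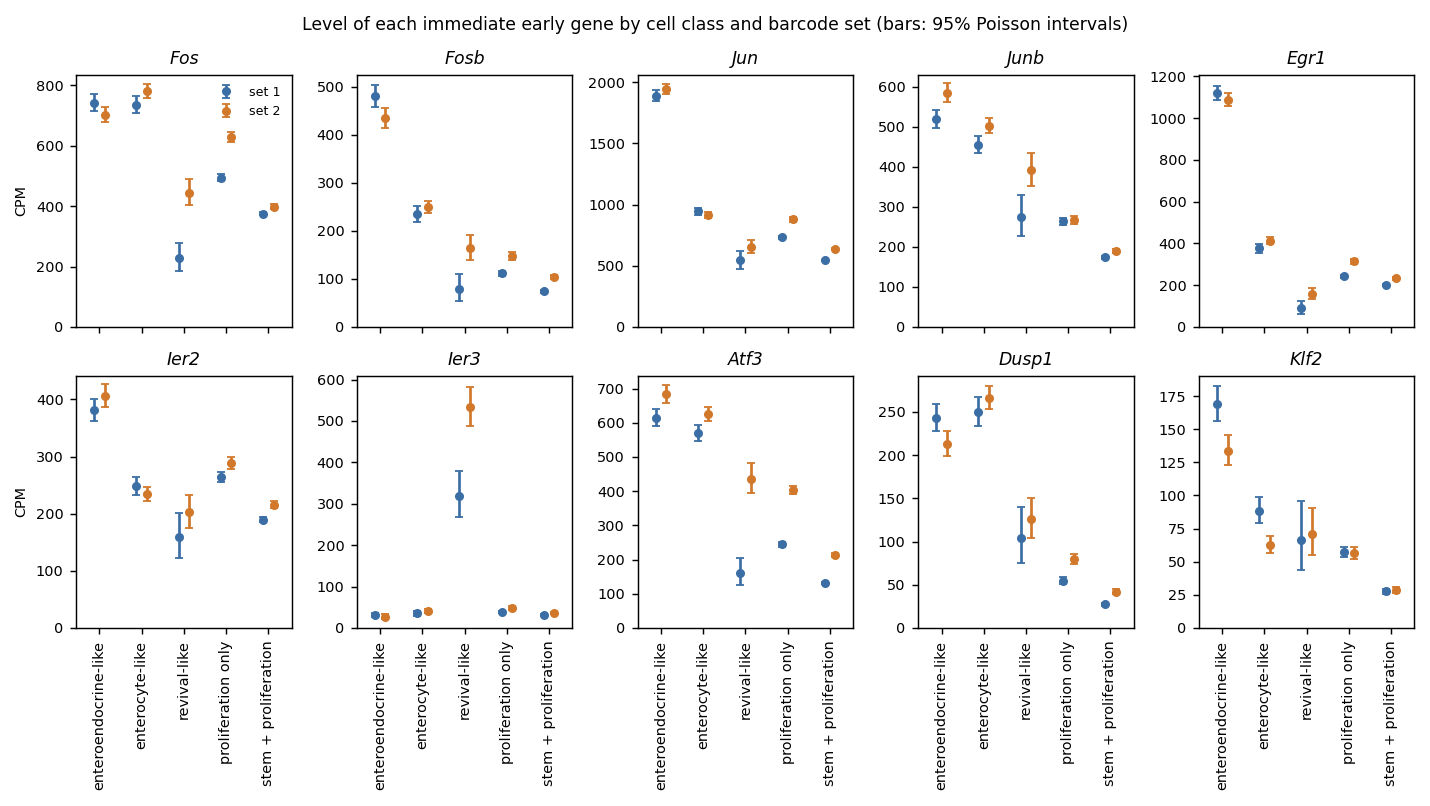
Level of each gene (CPM, linear axes from 0, each with its own scale) in 5 cell classes, for set 1 and set 2, with 95% Poisson intervals as bars. Ier3 is highest in the revival-like cells, while each of the other 9 genes has its lowest level of the 5 classes either in cells of both the stem and proliferation gates or in the revival-like cells, in both sets.

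Enteroendocrine-like cells had the highest level of these transcripts per UMI. The 10 genes summed to 6190 CPM in set 1 (interval 6111 to 6269) and 6216 in set 2 (6139 to 6293), and 9 of 10 were at least 1.5-fold above the remaining cells in set 1 and 8 of 10 in set 2. That fold was also passed by 43.1% of all genes in set 1 and 39.4% in set 2, so many genes stand higher in this class on the CPM scale. In UMIs per cell the order was another: enteroendocrine-like cells held 91.4 and 98.0 UMIs of the 10 genes per cell, enterocyte-like cells 125 and 142, and cells of both gates 58.2 and 68.8. Being the most numerous, cells of both gates held 41.7% and 30.8% of all UMIs of the 10 genes. The median log2 ratio over the 10 genes was 1.58 and 1.16, against 0.40 and 0.31 over all genes tested. Scaling to UMIs outside mitochondrial and ribosomal protein genes, which lowered the median of all genes by 0.31 in both sets, left medians of 1.18 and 0.78 for the 10 genes and 7 of 10 past the fold in each set, against 32.7% and 29.6% of all genes on that scale.

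Among the AP-1 subunits, Jun was at 1888 CPM in the enteroendocrine-like cells of set 1 (interval 1845 to 1932) and 1943 in those of set 2 (1900 to 1986). Its log2 ratio to the remaining cells was 1.55 and 1.31. Fosb was at 481 and 434 CPM, with ratios of 2.26 and 1.58. Egr1 was at 1120 and 1088 CPM, ratios of 2.25 and 1.85, and enteroendocrine-like cells carried 23.9% and 23.8% of all Egr1 UMIs while being 11.2% and 14.6% of the cells. Klf2 was at 169 and 134 CPM, with intervals of 156 to 183 and 123 to 146 and both sets past the fold. Fos differed less, at 742 and 703 CPM, with ratios of 0.77 and 0.38, and in set 2 it was one of the genes below the fold. Ier3 was the exception in direction, at 30.7 and 27.2 CPM and ratios of -0.25 and -0.86, past the fold downward in set 2.

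The class is shallower than the cells of both gates, with a median of 14212 and 14615 UMIs per cell against 35797 and 33552. At 2000 UMIs per cell the share of cells with a Jun UMI was 86.8% and 89.5% in enteroendocrine-like cells, against 58.8% and 58.2% in cells of both gates. Chgb was found at that depth in 99.4% and 98.9% of enteroendocrine-like cells. Restricted to cells with at least 20000 UMIs, which leaves 30 and 54 enteroendocrine-like cells, the 10 genes summed to 5014 and 4374 CPM, still above the 1760 and 2110 CPM of the cells of both gates.

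Within the class, the levels differed with Tph1. Cells with at least 1000 CPM of Tph1, the enzyme that starts serotonin synthesis and marks enterochromaffin cells, numbered 114 in set 1 and 139 in set 2. Jun was at 2233 CPM in these against 1607 in the 144 other enteroendocrine-like cells of set 1. In set 2 the gap was wider, 2682 against 1227 CPM in 118 other cells. Egr1 was at 1320 against 957 CPM in set 1 and at 1532 against 658 in set 2. Dusp1 was at 298 against 199 CPM in set 1 and at 330 against 99.6 in set 2. Of the 10 genes, 8 in set 1 and 9 in set 2 were higher in the cells with Tph1 with counting intervals apart, against 6.98% and 15.2% of all genes. Intervals part more easily at high counts, and no share matched for counts is given. In set 1 Jun had 3818 and 3372 UMIs in the cells with and without Tph1 at the limit, and Ier3 62 and 55. The intervals overlapped for Ier3 in both sets and for Junb in set 1. Median depth was similar (14614 and 13736 UMIs in set 1, 14017 and 16987 in set 2). The Tph1 limit was chosen after the data had been seen.

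Other genes of the early response were counted in enteroendocrine-like cells against the 43.1% and 39.4% of all genes that passed the fold upward there. Of the feedback inhibitors of mitogen-activated protein kinases (the DUSP, SPRY and SPRED families), 11 of 14 passed the fold upward in set 1 and 10 of 14 in set 2, with a median log2 ratio of 2.06 and 1.88. Dusp2, a nuclear phosphatase of these kinases, was at 106 and 116 CPM in the class against 1.505 and 0.595 in the remaining cells. Of the EGR, KLF and NR4A factors, 10 of 12 passed upward in each set, with medians of 1.64 and 1.72. Nr4a3, an orphan nuclear receptor, was at 41.2 and 37.8 CPM in the class against 3.54 and 5.34 over all kept cells, and Egr3 at 38.3 and 43.5 against 3.94 and 5.79. The list of 29 further immediate early genes had 28 tested, of which 16 and 14 passed upward, not far from the background, and 4 and 5 downward (16.4% and 19.0% of all genes downward). Arc, known for its role at neuronal synapses, was at 90.3 against 3.36 CPM in set 1 and 81.0 against 3.17 in set 2. Myc, the growth-promoting transcription factor, was in the other direction, at 4.46 against 25.4 and 4.69 against 21.0 CPM. Of the upstream factors, 7 and 8 of 11 passed upward, with a median of 0.92 and 0.74 against 0.40 and 0.31 for all genes. Srf, the serum response factor that binds the CArG box, was at 93.8 and 95.1 CPM in the class, against 22.6 and 25.6 over all kept cells.

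Enterocyte-like cells also had raised levels. The 10 genes summed to 3937 CPM in set 1 (interval 3873 to 4002) and 4089 in set 2 (4037 to 4140). At least 1.5-fold above the remaining cells were 6 of 10 in set 1 and 4 of 10 in set 2, against 13.5% and 13.2% of all genes. The median log2 ratio was 0.81 and 0.42, where that of all genes was -0.29 and -0.34. Dusp1 had the largest ratio, 2.18 and 1.76, with 250 CPM in set 1 (interval 234 to 267) and 266 in set 2 (253 to 280). The enterocyte-like cells were 4.96% and 9.68% of cells and held 22.3% and 30.9% of Dusp1 UMIs. Atf3 was at 570 and 626 CPM, with ratios of 1.47 and 0.90, and Junb at 455 and 503, with ratios of 0.97 and 0.89. Jun, so high in the enteroendocrine-like class, was at 943 and 911 CPM here, with ratios of 0.42 and 0.06. In both sets the largest ratios were those of Dusp1 and Atf3 in the absorptive class and those of Fosb and Egr1 in the hormone class. Enterocyte-like cells also had the highest mitochondrial share of the large classes, a median of 13.9%, and with at most 10% mitochondrial UMIs the set 2 count fell to 2 of 10. Over enterocyte-like cells, mitochondrial share had an r of 0.24 with the sum of the 10 genes in both sets, against 0.0012 and -0.19 over cells of both gates.

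Of the wider lists, Plk3, a stress-induced kinase, was at 63.5 CPM in the enterocyte-like cells of set 1 against 15.03 in the remaining cells, and at 82.5 against 19.7 in set 2. Zfp36, which binds AU-rich elements and speeds the decay of its target messages, was at 261 against 92.7 and 367 against 126 CPM. Both genes were also high in the enteroendocrine-like cells, Plk3 at 61.5 and 49.1 CPM and Zfp36 at 242 and 311. Of the feedback inhibitors, 2 of 14 passed upward and 6 downward in set 1, and 0 upward and 6 downward in set 2. Downward, 31.5% and 35.7% of all genes passed in this class, so the 6 are near the background. Dusp2 had no UMI in the enterocyte-like cells of set 1 and was at 0.169 CPM in those of set 2.

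Ier3, an early response gene known as a regulator of survival and of ERK signalling, had its own distribution. In the revival-like cells it was at 320 CPM in set 1 (interval 268 to 378) and 533 in set 2 (488 to 582), and in the other 4 classes plotted it lay between 27.2 and 48.4 CPM. Its log2 ratio to the remaining cells was 3.18 and 3.74. Few cells carry this value: the class has 15 and 17 cells, and the 3 highest held 74.1% and 72.6% of its Ier3 UMIs. Over the alternative processings the set 1 ratio ranged between 1.74 and 3.54, and the set 2 ratio between 2.30 and 4.51. Egr1 was low in the same cells, at 89.98 and 159 CPM, with ratios of -1.68 and -1.20. Of the 10 genes, 2 were past the fold upward and 3 downward in set 1 (20.1% and 29.9% of all genes), and 1 and 1 in set 2 (19.6% and 25.7%), so as a group they were near the background in this class.

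Cells of both the stem and proliferation gates had the lowest sum of the 4 classes with over 100 cells in each set. The 10 genes summed to 1773 CPM in set 1 (interval 1759 to 1787) and 2095 in set 2 (2077 to 2114). At least 1.5-fold below the remaining cells were 7 of 10 in set 1 and 9 of 10 in set 2, against 17.3% and 17.5% of all genes. Their median log2 ratio was -1.004 and -1.019, and that of all genes -0.10 and -0.06. Dusp1 was at 27.3 and 42.2 CPM, ratios of -2.07 and -1.79, and Klf2 at 27.6 and 28.3 CPM, ratios of -1.53 and -1.36. With cells thinned to equal depth, the shares of both genes in this class were under the Chgb share given above. That share gauges the free RNA of Chgb only, and the part of free RNA in these levels was not tested. Atf3 was at 131 and 212 CPM, with ratios of -1.42 and -1.23. Fos, at 376 and 397 CPM, and Ier2, at 189 and 216 CPM, had smaller ratios, -0.58 and -0.77 for Fos and -0.56 and -0.46 for Ier2. Without a limit on mitochondrial share the set 1 count fell to 4. Cells of the proliferation gate only lay between, at 2504 and 3114 CPM, and 0 of the 10 genes passed the fold upward or downward in either set (0.290% and 11.4% of all genes in set 1, 1.05% and 15.7% in set 2). Of the wider lists in the cells of both gates, 8 of 14 feedback inhibitors were past the fold downward in each set, and 13 and 14 of 28 further immediate early genes. Nr4a1, an orphan nuclear receptor, was at 7.60 and 19.7 CPM there, against 20.5 and 42.2 over all kept cells. Spred1, an inhibitor of RAS signalling, had a positive ratio, 0.52 and 0.92.

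Cells that passed none of the gates numbered 112 in set 1 and 96 in set 2. Their leading genes, from pooled counts, included the hormone genes Sst, Gast and Gip. Others, such as Sprr2a3, Nupr1 and Lrrc26, also led the cells of the stem gate only. The median sum of enteroendocrine markers per cell was 52.2 CPM, against 49.5 in cells of both gates, so the typical cell was not marked as a hormone cell. In the cells of no gate the 10 genes summed to 3798 CPM in set 1 and 3797 in set 2. At least 1.5-fold above the remaining cells were 6 of 10 in set 1 (9.99% of all genes) and 0 of 10 in set 2 (2.78%), with median log2 ratios of 0.68 and 0.24. Median depth was 9040 UMIs in set 1 and 24874 in set 2.

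The cells of both gates were not uniform. In those with at least 20000 UMIs, the sum per cell ran from 691 CPM at the 10th percentile to 3354 at the 90th in set 1 (863 cells). In set 2 it ran from 219 to 4554 (560 cells). Sampling error is larger at the low end, where a cell holds few UMIs of the 10 genes. Set 2 thus had more cells at both ends around medians of 1477 and 1860 CPM. Under 500 CPM were 41 cells of set 1, or 4.75% (interval 3.43 to 6.39), and 104 cells of set 2, or 18.6% (15.4 to 22.0). At 4000 CPM or more were 5.91% and 14.6%. Counted in steps of 0.5 on the log2 scale of the sum, set 2 held 4.82% of cells in the step from 7.5, 1.79% in that from 8.5 and 8.04% in that from 9.5, a dip that set 1 did not have (0.927%, 1.85% and 14.3%). The shares by step have no interval, and the dip was not tested. Within 1.5-fold of the 500 CPM limit were 83 cells of set 1 (9.62%) and 43 of set 2 (7.68%). The limit was chosen after the distribution had been seen, and the share under it was 2.78% to 4.75% in set 1 and 9.84% to 18.6% in set 2 over other depth ranges and with at most 10% mitochondrial UMIs. Cells of the proliferation gate only at that depth were under 500 CPM in 9 of 369 cases (2.44%) in set 1 and 17 of 248 (6.85%) in set 2, with intervals of 1.12 to 4.58% and 4.04 to 10.7%, and enteroendocrine-like cells in 1 of 30 and 2 of 54. Enterocyte-like cells were so in 0 of 99 and 2 of 154 cases, where 0 of 99 has an upper exact bound of 3.66%.

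**Figure D2:**
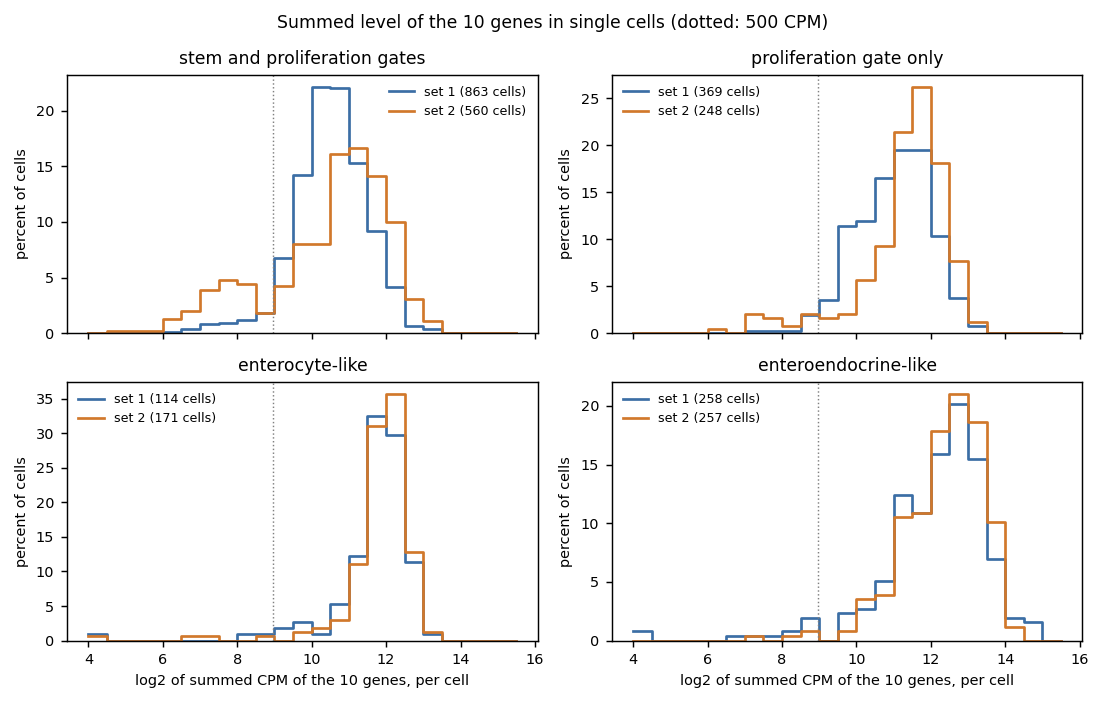
Share of cells (percent, linear axes from 0) by log2 of the summed CPM of the 10 genes in each cell, for set 1 and set 2. The panels of both gates and of the proliferation gate only hold cells with at least 20000 UMIs, the other panels all cells of the class, and cells at or under 16 CPM are in the first bin. In set 2 a second hump lies left of the dotted line at 500 CPM in cells of both gates, where 18.6% of cells lie against 4.75% in set 1.

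These low cells were not shallow. In set 2 they had a median of 42024 UMIs against 37186 in the other cells of both gates, 9.76% against 8.65% mitochondrial UMIs and 30.8% against 32.9% ribosomal protein UMIs. The summed proliferation markers were at 1214 and 1217 CPM and the summed stem markers at 823 and 736. Fos, part of the sum that chose the cells, was at 18.1 CPM in them and 505 in the others, and had a UMI in 49.0% and 98.7% of cells. Genes outside the sum also differed. Klf6, a Krüppel-like factor, was at 15.9 against 262 CPM in set 2, and at 14.3 against 203 in set 1. Zfp36 was at 13.9 against 103 and at 11.98 against 69.0, and Rhob, a short-lived small GTPase, at 5.82 against 51.8 and at 6.84 against 31.8. Of the 29 further immediate early genes, 20 were at 10 CPM or more in each set and 17 of these were at least 1.5-fold lower in the low cells, in both sets, while 3.38% of all genes at that level were so in set 2 and 3.66% in set 1. The feedback inhibitors had 6 of 8 lower in set 2 and 3 of 6 in set 1. Of 7 upstream factors, 0 were lower in set 2 and 1 in set 1. Cells were split on genes that vary together with these lists, so the counts describe the low cells and are no test.

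The genes varied together from cell to cell. Over the 2035 cells of set 1 and 1689 of set 2 with at least 2000 UMIs, the median Pearson r of a gene with the other 9, on the log of 1 plus UMIs per 10000, was 0.34 to 0.57 in set 1 and 0.35 to 0.63 in set 2 for every gene but Ier3. For Ier3 it was 0.09 and 0.13. Depth and cell class are shared by all of these values. Within the cells of both gates at 20000 UMIs or more, Fos and Atf3 had r = 0.57 in set 1 and 0.77 in set 2, Fos and Jun 0.53 and 0.76, and Fos and Egr1 0.57 and 0.74. Ier3 again had the lowest median r, 0.16 and 0.30. The higher values in set 2 go with the wider spread of the sum there.

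**Figure D3:**
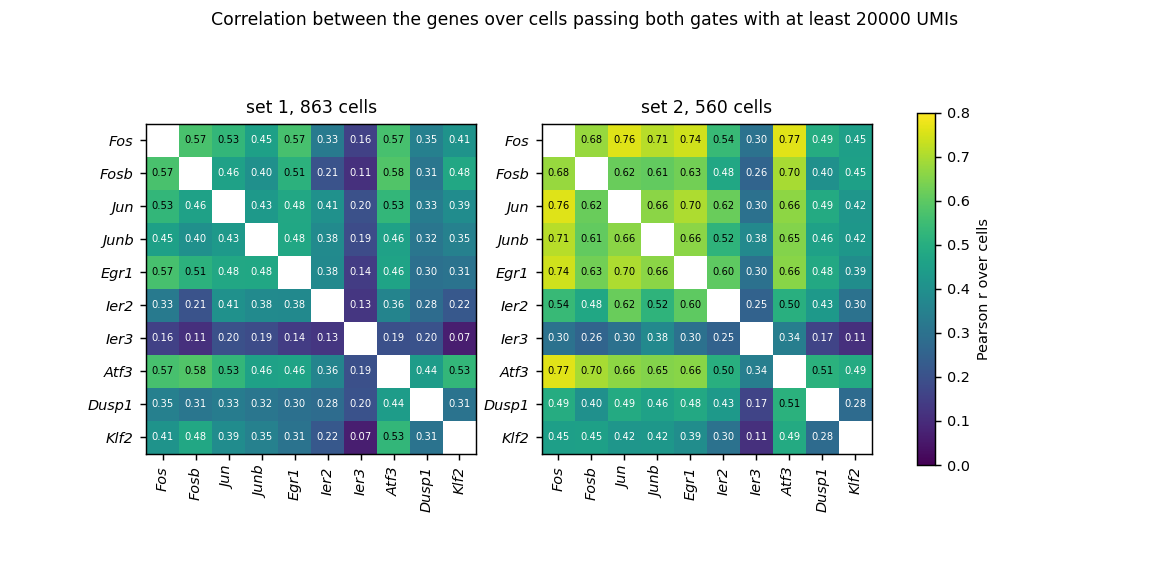
Pearson r between each pair of genes over cells of both gates with at least 20000 UMIs, for set 1 (863 cells) and set 2 (560 cells), with the colour scale from 0 to 0.8. Fos and Atf3 reach 0.57 and 0.77, and the row and column of Ier3 hold the lowest values.

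By the rule for likeness, the genes whose levels over cells followed the sum of the 10 most closely, of 2278 genes ranked, included Klf6 (r = 0.65 in set 1 and 0.72 in set 2), Jund (0.64 and 0.68), Zfp36 (0.60 and 0.64), Btg2 (0.58 and 0.61), Neat1 (0.62 and 0.57), Chka (0.55 and 0.58), Trib1 (0.55 and 0.57), Rhob (0.57 and 0.54) and Pnrc1 (0.52 and 0.59). Of these, 6 belong to the wider lists. Neat1 is a nuclear non-coding RNA. Near the other end was Hmgb1, a chromatin protein (-0.42 and -0.41).

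Between the sets, 8 of the 10 genes were at least 1.2-fold higher in set 2 over all kept cells, where 13.7% of all genes were, and 0 were that much lower, where 7.75% of all genes were. Their median log2 ratio was 0.30 against 0.03 for all genes. Atf3 had the largest ratio, 0.71, then Dusp1 with 0.59, Fosb with 0.44 and Ier3 with 0.40. Fos, Jun and Junb each stood at 0.28 and Egr1 at 0.32, close to the 1.2-fold line, while Ier2 at 0.19 and Klf2 at 0.08 were under it. The count is sensitive to scale: it was 5 when CPM were averaged over cells, 5 with a median ratio size factor, and 4 on UMIs outside mitochondrial and ribosomal protein genes. At 1.5-fold it was 2 (Atf3 and Dusp1). The Ier3 ratio rests in part on a few cells, since the top 3 held 14.8% of its UMIs in set 2, and over the alternatives it ranged from 0.03 to 0.52.

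Malat1, a nuclear non-coding RNA, was also higher in set 2 over all kept cells, with a log2 ratio of 0.84, and its r with the sum of the 10 genes over cells was 0.32 in set 1 and 0.20 in set 2, but 0.03 and -0.18 within cells of both gates. Its part in the ratios was not tested.

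The classes differ in size between the sets, so the ratio was also taken within them. In enteroendocrine-like cells 0 of the 10 genes were 1.2-fold higher in set 2 and 1, Klf2, was lower (14.3% and 26.6% of all genes), with a median of -0.06. In enterocyte-like cells 0 were higher and 1, again Klf2, was lower (19.4% and 23.5%), with a median of 0.09. In cells of both gates 3 were higher, Atf3 with 0.69, Dusp1 with 0.61 and Fosb with 0.49 (16.8% of all genes). In the same cells 0 were lower (9.35%), and the median of the 10 genes was 0.21 against 0.05 for all genes. By the thinned shares given above, Dusp1 was under the Chgb share in these cells. Fosb in both sets and Atf3 in set 1 were under the Fabp1 share. The part of free RNA in these 3 ratios was not tested. In cells of the proliferation gate only, 6 were higher (18.0%), with a median of 0.34. Atf3 there was at 244 CPM in set 1 (interval 236 to 253) and 404 in set 2 (392 to 417). Fos, at 0.35 in cells of the proliferation gate only, was at 0.08 in those of both gates. In cells of the stem gate only (74 and 90 cells), 7 were higher, led by Fosb with 0.98, and Ier3 was lower with -0.57, but 31.6% and 26.8% of all genes were past the fold there, and median depth was 2414 UMIs in set 1 and 17124 in set 2. In cells of no gate, Fos was higher with 0.34 and Ier3 lower with -0.28 (24.2% and 28.2% of all genes). The difference between classes was not tested.

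**Figure D4:**
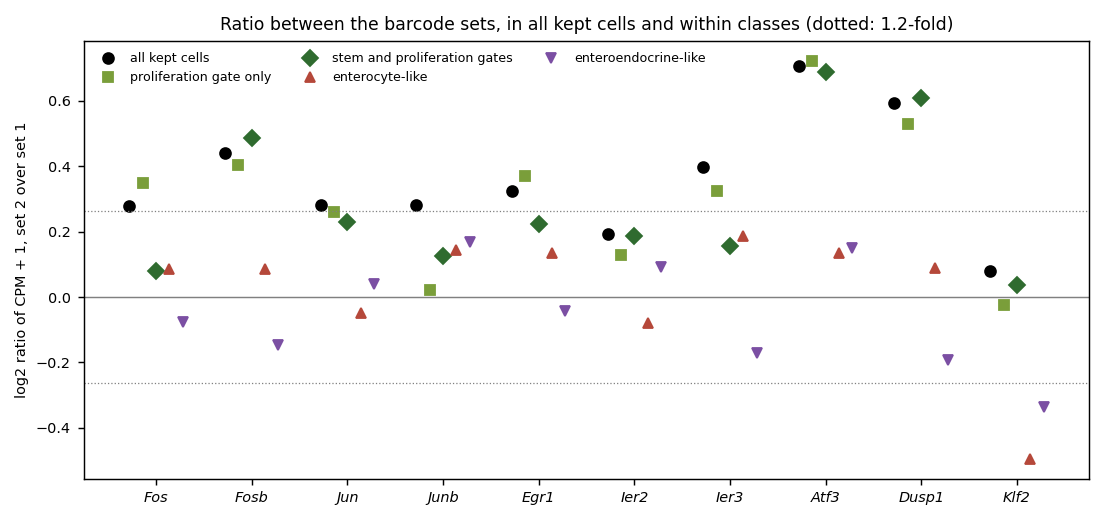
Log2 ratio of CPM plus 1, set 2 over set 1, for each gene in all kept cells and within 4 classes, with dotted lines at 1.2-fold in either direction. Atf3 and Dusp1 lie between 0.53 and 0.72 in the 2 classes of the proliferation gate and within 0.2 of 0 in the enteroendocrine-like and enterocyte-like classes.

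Values that bear on handling stress were read beside these. Of 12 heat shock genes seen after tissue dissociation, 6 were 1.2-fold higher in set 2 and 0 lower over all kept cells, with a median log2 ratio of 0.25, against 13.7% and 7.75% of all genes. In the cells of both gates 6 of 12 were higher, where 16.8% of all genes were. In cells of the proliferation gate only 9 of 12 were (18.0% of all genes), and in cells of the stem gate only 9 of 12 (31.6%), the classes with the most of the 10 genes higher. In enterocyte-like cells 0 of 11 were higher and 5 lower (23.5% of all genes lower), and in enteroendocrine-like cells 0 of 12 were higher and 4 lower (26.6%), the last near the background. Against the remaining cells, 7 of 12 in set 1 and 4 of 12 in set 2 were 1.5-fold higher in enteroendocrine-like cells (43.1% and 39.4% of all genes). Their summed level, much of it from abundant constitutive chaperones such as Hsp90ab1 and Hspa8, was 8318 and 7508 CPM in enteroendocrine-like cells, 5866 and 5164 in enterocyte-like cells, and 8350 and 9034 in cells of both gates. The inducible Dnajb1 ran in the order of the 10 genes, at 209, 102 and 29.5 CPM in these classes of set 1 and 145, 84.3 and 41.6 in those of set 2. Hspa1a and Hspa1b, inducible chaperones, did so in set 1 (222, 109 and 45.8 CPM for Hspa1a, 170, 90.2 and 27.1 for Hspa1b) but not in set 2 (113, 39.0 and 97.2, and 97.3, 43.3 and 67.3). Over cells, the heat shock sum had an r with the sum of the 10 genes of 0.09 in set 1 and 0.03 in set 2, but 0.36 and 0.48 within enteroendocrine-like cells and 0.14 and -0.08 within enterocyte-like cells. In cells of both gates this r was 0.05 in set 1 and 0.28 in set 2. Hspa1a was at 9.41 CPM in the low cells of set 2 and 123 in the other cells of both gates, and the constitutive Hspa8 at 1883 and 1855. The share of ribosomal protein UMIs had an r with the sum of -0.38 and -0.27 over all cells, but of -0.04 and 0.23 within cells of both gates. The part of dissociation in the levels of the 10 genes was not tested, as no undissociated sample was analysed here.

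Barcodes above the mitochondrial limit, 6110 in set 1 and 3671 in set 2, also held these transcripts. Here levels are CPM of non-mitochondrial UMIs, since mitochondrial UMIs dilute all other genes in these barcodes. On this scale Jun was at 1228 in them against 799 in kept cells of set 1, and at 1915 against 972 in set 2. Fos was in the other direction, at 394 against 504 and 524 against 611, and Atf3 at 230 against 250 and 379 against 409. The gap between the sets was uneven over mitochondrial share. In barcodes with 5 to 10% the 10 genes summed to 2568 CPM in set 1 and 3293 in set 2, and with 10 to 20% to 2896 and 3518. The sets were closest at 20 to 35%, with 3162 and 3274, and further apart at 50 to 65%, with 3286 and 6348, and at 65 to 80%, with 2543 and 5662. At 80 to 100% the sums were 1891 and 3118. Jun in barcodes with 50 to 65% was at 1356 and 2866. Malat1 was at 13500 and 26744 in the same range, and the heat shock genes summed to 7720 and 8725. Median depth was 3978 and 4647 UMIs there, against 34008 and 33025 in kept cells with 5 to 10%.

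**Figure D5:**
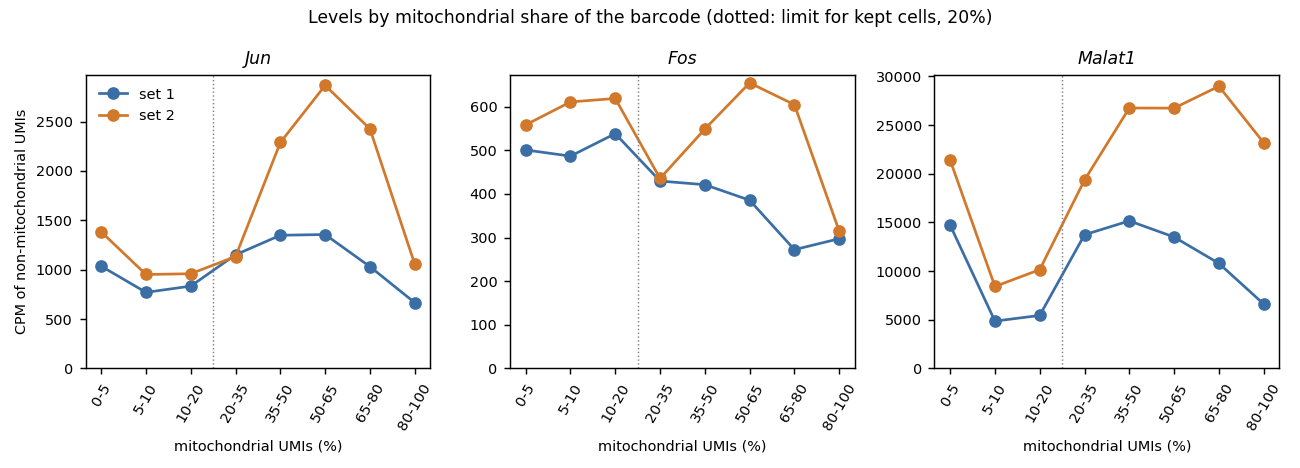
Jun, Fos and Malat1 in CPM of non-mitochondrial UMIs (linear axes from 0), by range of mitochondrial share of the barcode, for set 1 and set 2, with the limit for kept cells dotted at 20%. Above 35% set 2 lies over set 1 in all 3 panels, and Jun reaches 2866 in set 2 against 1356 in set 1 at 50 to 65%.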

How the data were processed

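The deposited matrix holds UMI counts per gene and barcode as whole numbers, without normalization. Per the submitters' processing notes, Cell Ranger 3.1.0, bcl2fastq 2.20.0 and STAR 2.7.3a were used, and the genome build is not given in the sources used here. From these deposited counts, barcodes were filtered as stated, classed by summed marker CPM and summed within class and set in Python 3.11.15 (numpy 2.4.6, scipy 1.17.1, pandas 2.3.3). The gates were 4000 CPM (enteroendocrine), 10000 (enterocyte), 5000 (goblet and Paneth), 2000 (revival), 1000 (tuft), 500 (stem) and 300 (proliferation), set from the marker sums after seeing them and not from the immediate early genes. Cells above several lineage gates, 107 in all, and 4 above the tuft gate are in no class described. No doublet caller was used, and no cell was removed as a doublet. Log2 ratios use CPM plus 1, over genes with at least 10 UMIs. Wider lists count genes past the fold among those tested. Ratios and intervals were checked on simulated counts.

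The genes, the lists, the markers and the rule for named genes (the 10 genes, the 10 genes most alike over cells, and the 3 largest ratios in each direction among list genes at 10 CPM or more) were chosen with earlier results of these data known. Some genes that the likeness rule names are not reported here. Alternatives changed the mitochondrial limit, scaling, pseudocount, gates, depth, the highest cells and the barcodes with both endings.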

Additional observations from a re-analysis of the deposited data

Results flagged for a closer look

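Jun in the barcodes above the mitochondrial limit, which the comparisons between classes and sets do not use, was at 1228.38 CPM of non-mitochondrial UMIs in set 1 and 1915.24 in set 2. The kept cells of the same sets were at 799 and 972. These values stand out as a signal in barcodes left out of the comparisons, and what they come from was not tested.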

How the results depend on the processing

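Over 14 alternatives, 91 of 97 counts of genes past the fold stayed within 1.5 times the main count. The count of genes higher in set 2 was 8, and fell to 5 when CPM were averaged over cells, to 5 with a median ratio size factor, to 4 on UMIs outside mitochondrial and ribosomal protein genes, and to 2 at 1.5-fold. Against the remaining cells, the count higher in set 2 enterocyte-like cells went from 4 to 2 with at most 10% mitochondrial UMIs. The count lower in set 1 cells of both gates went from 7 to 4 with no mitochondrial limit. The cause of these shifts was not tested. Ratios of single genes between classes that were past the fold kept their sign in 644 of 644 values, and ratios between the sets in 119 of 120, but 264 and 40 of these moved by more than the counting error and 42 of 96 medians by more than 0.05 (log2). Genes called between the sets fell from 2113 to 993 upward and from 1199 to 424 downward at 10 CPM or more, and to 381 and 216 at 1.5-fold. On UMIs outside mitochondrial and ribosomal protein genes the median of all genes moved by -0.31 for enteroendocrine-like cells in both sets and by -0.19 for enterocyte-like cells. Cells with at least 5000 or at least 20000 UMIs, an alternative chosen after seeing the data, gave 8 genes higher in set 2 in both cases. Shares of cells with a UMI rise with depth, so only those at 2000 UMIs compare classes. No paired analysis was possible because both samples hold the same matrix and no label ties a barcode ending to a sample. Leaving out a replicate was not possible for the same reason.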

Other observations

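In Paneth-like cells, antimicrobial cells of the crypt base, the 10 genes summed to 1674 CPM in the 17 cells of set 1 and 3388 CPM in the 41 of set 2. Jun was at 410 CPM in set 1 (interval 359 to 466) and 907 in set 2 (855 to 961), and Atf3 at 79.6 and 434. In set 1 the 3 highest cells held 68.9% of the Atf3 UMIs of the class. The class is a range above a limit rather than a distinct group: of 112 cells above the Paneth limit of 5000 CPM, 71 were within 2-fold of it, and the class median of the stem and proliferation sums, 730 and 1161 CPM, was near the 781 and 1286 of cells of both gates. Cells above several lineage gates, which are not in the class, were led by genes such as Defa24, Zg16, Muc2 and Lyz1. Their median enteroendocrine sum was 8551 CPM, and the 10 genes summed to 4287 CPM in set 1 and 3939 in set 2 there. Goblet-like cells, the mucus-secreting class, summed to 1611 CPM in 22 cells and 2787 in 9 cells, where the 3 highest of set 2 held 69.4% of Jun UMIs. With so few cells, these values describe those cells.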
